A study of Mus musculus with 12 samples.

Results

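The genes described here build and run mitosis and chromosome segregation: the kinetochore, the spindle checkpoint, the mitotic kinases, spindle motors, cytokinesis factors and condensin, with the regulator Foxm1 and the marker Mki67. The list holds 47 genes, without the cyclins and Cdk1, and 46 of them are measured, of 17097 genes on the arrays. Each is represented by the probe set named to it alone that had the highest mean log2(intensity + 16) over all arrays. Nuf2, a subunit of the Ndc80 complex, had no probe set named to it alone. RNA came from whole adult liver of C57BL/6 wildtype mice and of Socs2-null mice kept on that background. Livers were taken without operation in age-matched animals of each genotype (0 h), and 24 h and 36 h after removal of most of the liver by partial hepatectomy. Each of the 6 groups has 2 arrays, and each array carries RNA pooled from 3 animals. The control mice carry no engineered allele, Socs2 is lost in the whole animal, and pooling hides the spread between single animals.

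After partial hepatectomy, hepatocytes that are normally at rest re-enter the cell cycle, replicate their DNA and then divide, so the remaining liver regains its mass. Transcripts of mitotic genes are scarce in resting liver and are made late in the cycle, when the MuvB complex with B-Myb and Foxm1 acts at CHR elements and NF-Y acts at CCAAT boxes of their promoters. Socs2 restrains the growth hormone receptor and its JAK2 and STAT5 signalling, and the series asks how its loss affects regeneration. In whole tissue, fewer cells of a type and less RNA per cell cannot be told apart.

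The promoters of 4 genes are printed, out of 8 genes that passed the test in both genotypes at 24 h. Smc2 and Mad2l1 passed as rises and Cenpa and Cenpf as falls. Hmmr and Pttg1 also fell in both genotypes, and their matches are given below without the bases. The printed genes were chosen after their values were seen, because no gene rose at 36 h in both genotypes. Each run is the 250 bases before the annotated start on the gene's own strand, from RefSeq on GRCm38.p6. Capitals mark CHR-like hexamers (TTTGAA or TTTAAA) and CCAAT, searched on both strands, so a reverse match reads TTCAAA or ATTGG.
Smc2, chr4:52438971-52439220, plus strand: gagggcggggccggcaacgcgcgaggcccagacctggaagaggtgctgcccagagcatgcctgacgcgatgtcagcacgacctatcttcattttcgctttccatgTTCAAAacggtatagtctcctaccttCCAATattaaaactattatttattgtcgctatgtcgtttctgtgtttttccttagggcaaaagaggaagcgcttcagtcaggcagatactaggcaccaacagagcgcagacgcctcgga
Mad2l1, chr6:66534971-66535220, plus strand: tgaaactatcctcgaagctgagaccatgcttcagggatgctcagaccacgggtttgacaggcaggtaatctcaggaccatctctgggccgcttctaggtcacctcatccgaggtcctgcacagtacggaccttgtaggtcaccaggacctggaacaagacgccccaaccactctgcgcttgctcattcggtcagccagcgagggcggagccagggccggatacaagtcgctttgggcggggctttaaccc
Cenpa, chr5:30666636-30666885, plus strand: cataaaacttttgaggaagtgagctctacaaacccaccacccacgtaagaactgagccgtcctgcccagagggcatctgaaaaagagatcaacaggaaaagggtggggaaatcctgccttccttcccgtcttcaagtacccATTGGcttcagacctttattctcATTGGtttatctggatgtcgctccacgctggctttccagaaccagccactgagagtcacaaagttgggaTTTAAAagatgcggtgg
Cenpf, chr1:189688087-189688336, minus strand: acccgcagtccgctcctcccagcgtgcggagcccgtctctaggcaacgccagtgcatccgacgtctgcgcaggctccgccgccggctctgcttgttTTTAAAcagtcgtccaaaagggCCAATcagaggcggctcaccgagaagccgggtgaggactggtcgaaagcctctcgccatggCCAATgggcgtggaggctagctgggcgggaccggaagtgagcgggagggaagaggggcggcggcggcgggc

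Smc2 had 1 CHR-like match and 1 CCAAT in these bases, while Cenpa and Cenpf each had 1 CHR-like match and 2 CCAAT, and no match overlapped another. The Mad2l1 window had neither. Upstream of Hmmr there were 5 CCAAT and no CHR-like match, and upstream of Pttg1 neither was found. The promoter table holds 41 windows of 300 bases for 39 of the 47 genes, 2 of which have several. These windows also reach past the start, and over its whole window Hmmr had both motifs. A CHR-like match was present in 32 of the 41 windows (78.05%), against 27.59% of all 32851 windows. CCAAT was likewise present in 32 windows (78.05%, against 37.41% of all), and both motifs in 28 (68.29%, against 10.73%). A match is a match of letters only. Genes that rose, genes that fell and genes without a call all had windows with both motifs, as in Smc2, Cenpf and Plk1.

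Most of the 46 genes were dim. A gene counts as under background in a group when its level on each array is below that of the brightest tag control, the highest reading of 17 control probe sets on that array, which lay between 32.96 and 45.01. Over all 12 arrays, 13 of the 46 genes (28.26%) exceeded this level everywhere, against 59.78% of all genes, and 9 (19.57%) exceeded it nowhere, against 16.88%. Under background were 27 genes in wildtype liver at 0 h, 21 at 24 h and 12 at 36 h, and in Socs2-null liver 22, 14 and 17. The brightest tag control read 41.7 and 42.8 on the wildtype 0 h arrays, but 43.5 and 34.0 on those of 36 h. Kif2c thus counts as under background in wildtype liver at 0 h (mean 40.0) but not at 36 h (mean 36.3). The same counts over all genes are not given, so these counts alone show no rise. A fold against a group under background is a lower bound, while the log2 changes are fitted values and no bound, and no fold is given where both groups are under it. By role, the genes above the tag controls on all arrays were 4 of 6 at the kinetochore, 3 of 8 in the checkpoint and anaphase, 2 of 11 among kinases and passengers, 1 of 7 spindle motors, none of 6 in cytokinesis and 2 of 6 in condensation.

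**Figure D1:**
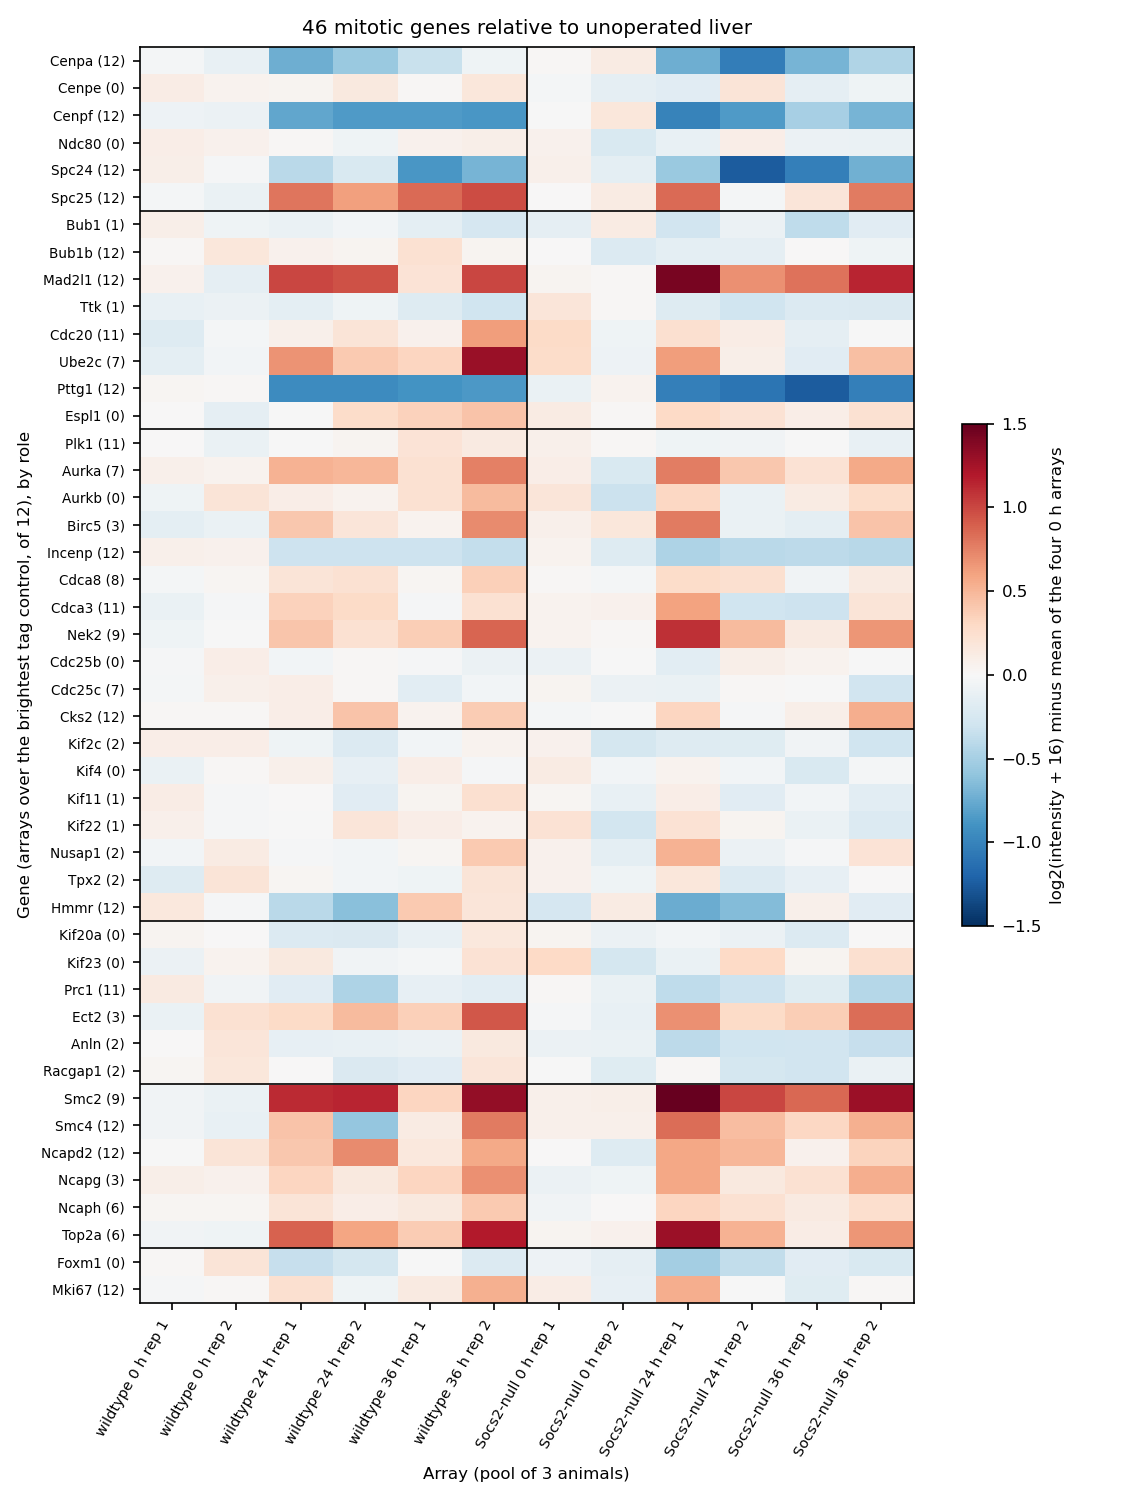
Each cell is log2(intensity + 16) of a gene on an array minus that gene's mean over the 4 arrays of unoperated liver, with genes in rows by role and arrays in columns by genotype and time. Numbers after the names count the arrays, of 12, on which the gene exceeded the brightest tag control. Smc2, Mad2l1 and Top2a stand out as higher after hepatectomy and Pttg1, Cenpf, Cenpa and Spc24 as lower, and many other rows change little or differ between the pools of a group.

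Median intensities of the arrays were 47.5 to 52.3 at 0 h, 43.5 to 47.3 at 24 h and 45.9 to 49.6 at 36 h. A sign of RNA quality is the log2 ratio of the 3' to the 5' beta-actin probe set. It was 0.51 to 0.55 at 0 h, 0.32 to 0.46 at 24 h and 0.29 to 0.36 at 36 h. Socs2 itself read 116 to 546 in wildtype liver and 23.1 to 29.5 in Socs2-null liver, under the tag controls. Of the cell type markers, all 12 of hepatocytes were measured with none under background on all arrays, and summed to 137000 to 139300 at 0 h and 119700 to 128600 afterwards. The 14 Kupffer cell and macrophage markers summed to 7601 to 9014 at 0 h, 9848 to 10260 at 24 h and 8704 to 11290 at 36 h, and 10 measured lymphocyte markers, with Nkg7 and Ighm under background throughout, to 459.6 to 486.5, 383.6 to 450.2 and 413.2 to 450.2. The summed level of 8 measured erythroid markers was 8749 to 8971 at 0 h, 4441 to 5798 at 24 h and 4392 to 5398 at 36 h, with Gata1 under background throughout. The 12 sinusoidal endothelial markers summed to 4530 to 4889, 4084 to 4432 and 3240 to 3866 at these times, with none under background on all arrays. The 6 measured neutrophil markers summed to 1856 on the array of Socs2-null 24 h replicate 2 and to 343 to 599.5 on the others. Hybridization controls, RNA spiked in before hybridization, averaged 9.86 to 9.98 in log2 intensity at 0 h, 9.34 to 9.90 at 24 h and 9.01 to 9.23 at 36 h. The part of these shifts in the changes below was not tested, beyond the covariate of the controls, median centring and quantile normalization.

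In wildtype liver at 24 h, 3 of the 46 genes rose (Smc2, Mad2l1 and Spc25) and 6 fell (Pttg1, Cenpf, Hmmr, Cenpa, Foxm1 and Incenp) by limma's moderated test with Benjamini-Hochberg adjustment over all genes at 0.05. That is 9 of 46, where 25.8% of all genes passed. In Socs2-null liver at 24 h, 5 rose (Smc2, Mad2l1, Nek2, Aurka and Ncapd2) and 8 fell (Pttg1, Cenpf, Cenpa, Spc24, Hmmr, Incenp, Ttk and Foxm1), where 24.2% of all genes passed. At 36 h, 2 rose (Spc25 and Espl1) and 4 fell (Pttg1, Spc24, Cenpf and Incenp) in wildtype liver, against 15.2% of all genes. In Socs2-null liver at 36 h, 2 rose (Smc2 and Mad2l1) and 6 fell (Pttg1, Spc24, Cenpf, Cenpa, Incenp and Ttk), against 20.0% of all genes. The shares of the 46 genes called, 19.57%, 28.26%, 13.04% and 17.39% in this order, lie near those of all genes, so the count of calls does not set these genes apart. Falls outnumbered rises among the 46 genes in these 4 fits, but not under every setting. With median centring the wildtype calls were 4 rises and 4 falls at 24 h and 3 and 3 at 36 h, and the Socs2-null 24 h calls 6 and 5. With only the arrays compared in the fit, wildtype liver at 24 h had 10 rises and 7 falls. With the hybridization controls as a covariate the calls numbered 5 and 4 in Socs2-null liver at 24 h and 36 h, all of them falls, and 1 in wildtype liver at 36 h, the fall of Spc24. The controls at 36 h did not overlap those at 0 h, so what the covariate takes up and what time does cannot be told apart. With it the calls of Spc25 (adjusted p = 0.125 and 0.891) and Espl1 (0.978) in wildtype liver were lost, as were those of Aurka (0.464), Nek2 (0.512), Ncapd2 (0.296), Hmmr (0.217) and Foxm1 (0.257) in Socs2-null liver at 24 h, of Ttk (0.201) there at 36 h, and 3 of the 4 Incenp calls (0.130 to 0.482). The mean of all probe sets ended the calls of Hmmr (0.197 and 0.761) and Foxm1 (0.110 and 0.256) in both genotypes at 24 h, and those of Ttk in Socs2-null liver (0.802 and 0.496). Median centring ended those of Cenpa in wildtype liver (0.0699), of Foxm1 in Socs2-null liver (0.0683) and of Ttk (0.0564 and 0.0565). Among all genes, rises made up 39.66% of the calls in wildtype liver at 24 h, and 65.32% after centring each array on its median or 49.32% after quantile normalization. The corresponding shares were 37.47%, 53.37% and 41.70% in wildtype liver at 36 h, and 44.48%, 60.59% and 45.68% in Socs2-null liver at 24 h and 49.25%, 56.91% and 45.57% there at 36 h.

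The median log2 change of the 46 genes was 0.016 in wildtype liver at 24 h and 0.135 at 36 h, and 0.081 and -0.014 in Socs2-null liver. The wildtype 36 h median was 0.038 without wildtype 36 h replicate 2, 0.037 over the 8 brighter genes left when genes below the median level were dropped, and -0.29 with the covariate. Over all genes the medians were -0.080, -0.065, -0.039 and -0.026. Centring on array medians moved the wildtype 24 h median of all genes from -0.080 to 0.041 and that of the 46 genes from 0.016 to 0.138, and turned the sign of the Socs2-null 36 h median of the 46 genes to 0.021. The genes called in both genotypes at 24 h were 8, which is 88.89% of the wildtype and 61.54% of the Socs2-null calls, and at 36 h 4, which is 66.67% and 50% of them. Over all genes the same shares were 65.61% and 69.90% at 24 h and 72.12% and 54.85% at 36 h. The mean log2 level of all 46 genes lay between 5.98 and 6.33 on the 12 arrays, with a pooled SD of 0.111 between the pools of a group.

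**Figure D2:**
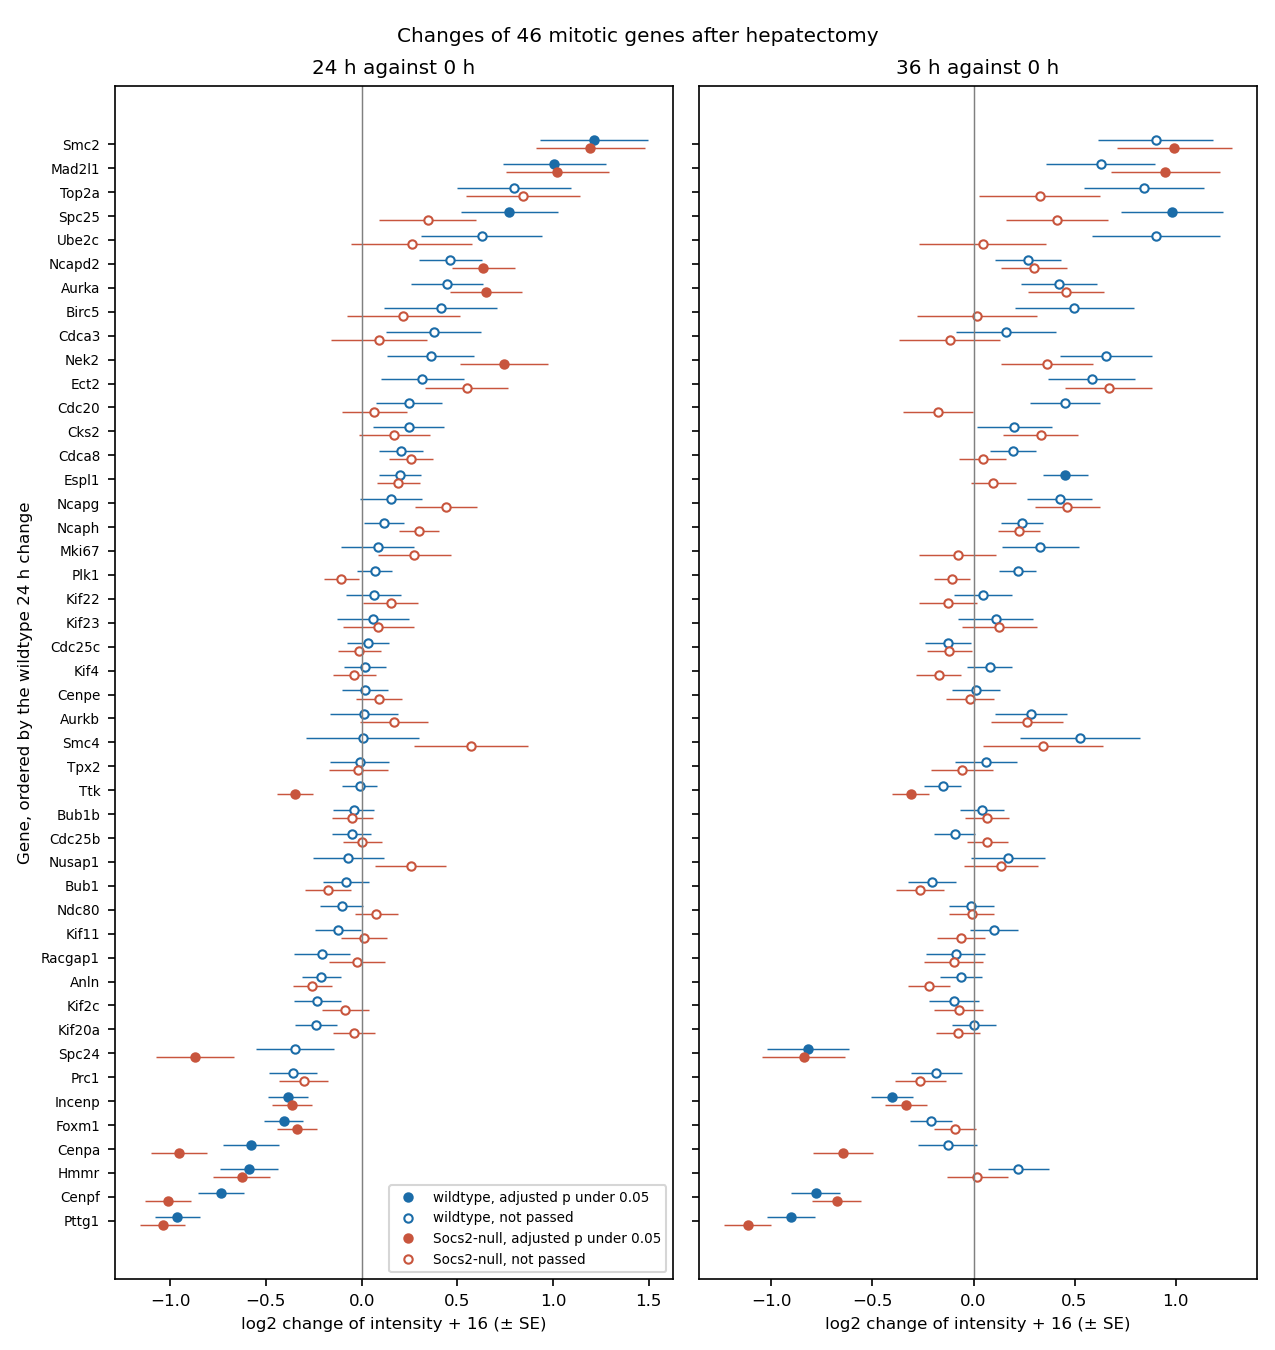
Points are the log2 changes of intensity + 16 from 0 h to 24 h (left) and to 36 h (right) for the 46 genes, with bars of 1 SE from the model of all 12 arrays, in wildtype (blue) and Socs2-null liver (red). Filled points passed an adjusted p of 0.05. Filled points lie at both ends of the order, with Smc2 and Mad2l1 highest and Pttg1 and Cenpf lowest at 24 h.

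At the centromere and kinetochore, where chromosomes attach to the spindle, 4 of 6 measured genes exceeded the tag controls on all arrays, and Spc25 and Spc24, paired subunits of the Ndc80 complex, moved in opposite directions. In wildtype liver Spc25 read 94.5 and 89.3 before the operation, 181 and 156 after 24 h, and 188 and 207 after 36 h. Levels below follow this order, 2 arrays per time. In Socs2-null liver it read 97.6 and 107, 187 and 95.0, and 112 and 178. All 4 wildtype arrays after hepatectomy lay above both 0 h arrays, while 1 of the Socs2-null 24 h arrays stayed at the unoperated level. Spc25 rose 1.71-fold in wildtype liver at 24 h (log2 change 0.77 ± 0.25 SE, adjusted p = 0.0453) and 1.97-fold at 36 h (0.98 ± 0.25, adjusted p = 0.0263). In Socs2-null liver the log2 changes were 0.34 and 0.41 (adjusted p = 0.353 and 0.287), and 0.78 at 24 h without replicate 2 of that group. Spc24 read 291 and 269, 201 and 231.5, and 142 and 162 in wildtype liver, and 289.6 and 245, 179.9 and 105, and 126 and 159 in Socs2-null liver. Every array after hepatectomy lay below every array of unoperated liver. Spc24 fell 1.76-fold in wildtype liver at 36 h (log2 change -0.82 ± 0.20, adjusted p = 0.0216), and 1.83-fold at 24 h and 1.79-fold at 36 h in Socs2-null liver (adjusted p = 0.0106 and 0.0147).

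Cenpf, a large protein of the outer kinetochore, fell in both genotypes at both times. It read 148 and 147, 85.3 and 79.8, and 80.1 and 78.6 in wildtype liver, and 156 and 179, 70.5 and 79.8, and 107 and 90.7 in Socs2-null liver. The unoperated arrays lay above all others without overlap. The falls were 1.66-fold and 1.72-fold in wildtype liver and 2.01-fold and 1.60-fold in Socs2-null liver, with adjusted p between 0.00034 and 0.0029. Both 36 h calls of Cenpf were lost with the hybridization control covariate (log2 change -0.38 and -0.29, adjusted p = 0.446 and 0.520). Cenpa is the histone H3 variant that marks centromeres. It read 119 and 111, 66.7 and 77.6, and 93.1 and 116 in wildtype liver, and 123 and 134, 67.0 and 51.1, and 68.8 and 84.4 in Socs2-null liver. In wildtype liver Cenpa was lower at 24 h (1.49-fold, log2 change -0.58 ± 0.15, adjusted p = 0.0164), and at 36 h 1 array was back at the 0 h level (log2 change -0.13, adjusted p = 0.597). In Socs2-null liver it fell 1.94-fold at 24 h (adjusted p = 0.00131) and 1.56-fold at 36 h (adjusted p = 0.0106). A second Cenpa probe set, under background on all arrays, changed by 0.067 and -0.21 at 24 h in wildtype and Socs2-null liver, and no Cenpa call held with it alone (adjusted p = 0.703 and 0.213 at 24 h). Ndc80 and the kinesin Cenpe were under background everywhere, at 22.5 to 32.7 and 19.6 to 29.9, with log2 changes between -0.10 and 0.092.

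For single arrays left out, the calls of Cenpf held in each case, and so did the Socs2-null 24 h call of Cenpa. The others were lost without single arrays of the groups compared. A group that loses an array keeps 1, so its own spread no longer enters the fit. Calls lost or gained this way thus also reflect the smaller number of arrays. For Spc25 in wildtype liver, leaving out any array of the groups compared gave adjusted p of 0.102 to 0.191 at 24 h and 0.0645 to 0.146 at 36 h. At 24 h its call was also lost without either Socs2-null 0 h array (0.0625 and 0.0625) or either wildtype 36 h array (0.0584 and 0.0587). Spc24 in wildtype liver at 36 h gave 0.0668 to 0.130 without any array compared. In Socs2-null liver it gave 0.0817 and 0.106 at 24 h and 36 h without 0 h replicate 1, 0.0672 without 24 h replicate 2 and 0.0971 without 36 h replicate 1. Cenpa in wildtype liver at 24 h gave 0.103 and 0.0721 without either 0 h array and 0.104 without 24 h replicate 1. In Socs2-null liver at 36 h it gave 0.0781 without 0 h replicate 2 and 0.0801 without 36 h replicate 1.

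The spindle checkpoint holds anaphase back until all chromosomes are attached, and the anaphase-promoting complex then destroys securin and frees separase. Of these 8 genes, the checkpoint protein Mad2l1 rose and securin, encoded by Pttg1, fell. Mad2l1, which inhibits Cdc20, read 73.9 and 62.1, 155 and 149.5, and 82.4 and 155 in wildtype liver. In Socs2-null liver it read 72.4 and 70.7, 214 and 122, and 135 and 174. The 24 h arrays and the Socs2-null 36 h arrays all lay above the unoperated ones, and at 36 h in wildtype liver 1 array was near them. Mad2l1 rose 2.01-fold in wildtype liver at 24 h (log2 change 1.01 ± 0.27, adjusted p = 0.0216), and 2.03-fold and 1.93-fold in Socs2-null liver at 24 h and 36 h (adjusted p = 0.0202 and 0.0316). In wildtype liver at 36 h the change was 0.63 (adjusted p = 0.143), and 1.03 without replicate 1 of that group. Without any array of the groups compared, the adjusted p of its calls was 0.0725 to 0.127 in wildtype liver at 24 h and 0.0568 to 0.156 in Socs2-null liver at 36 h. In Socs2-null liver at 24 h it was 0.0821 and 0.0919 without a 0 h array and 0.112 without 24 h replicate 1. With the covariate both Socs2-null calls were lost, at 0.44 (adjusted p = 0.324) and, with its sign turned, -0.26 (0.793).

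Pttg1 fell in both genotypes at both times. It read 1675 and 1661, 845 and 849, and 873 and 897 in wildtype liver, and 1533 and 1702, 795 and 760.1, and 680.4 and 796 in Socs2-null liver. No array after hepatectomy came near the unoperated ones. The falls were 1.95-fold and 1.87-fold in wildtype liver and 2.06-fold and 2.17-fold in Socs2-null liver, with adjusted p between 0.000161 and 0.000877. Both other Pttg1 probe sets exceeded the tag controls on all arrays but were dimmer, at 590.7 to 632.5 and 123.8 to 140.5 at 0 h. They were lower in the same comparisons by less, at log2 -0.54 and -0.49 in wildtype liver at 24 h. In Socs2-null liver at 36 h they changed by -0.65 and -0.31. Which probe set best reports Pttg1 was not tested. These calls held without each single array. The Socs2-null 36 h call was lost with probe sets of shared sequence left out (adjusted p = 0.117), and the wildtype 36 h call with the hybridization controls as a covariate (adjusted p = 0.0565).

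Separase itself, encoded by Espl1, was under background on all arrays, at 14.8 to 29.4. Its call in wildtype liver at 36 h (log2 change 0.45 ± 0.11, adjusted p = 0.0204) therefore has no fold, and it was lost without either 0 h array (adjusted p = 0.0651 and 0.161) or 36 h replicate 2 (0.124). The checkpoint kinase Ttk exceeded the tag controls on 1 array. It read 43.9 and 37.4, 30.1 and 26.9, and 29.8 and 29.4 in Socs2-null liver, which passed the test at both times (adjusted p = 0.0201 and 0.0365) as falls of at least 1.08-fold and 1.13-fold. These calls were lost without 0 h replicate 1 of that genotype (adjusted p = 0.130 and 0.206), without 24 h replicate 2 (0.0967), without either 36 h array (0.122 and 0.130), and at 36 h without either wildtype 0 h array (0.0584). A second Ttk probe set changed by 0.27 and 0.10. Ube2c, the ubiquitin-conjugating enzyme of the anaphase-promoting complex, read 29.6 and 33.2, 64.6 and 50.5, and 47.5 and 108 in wildtype liver, and 45.1 and 31.9, 61.9 and 38.0, and 28.9 and 53.4 in Socs2-null liver. The wildtype arrays separated, but the change at 36 h did not pass the test (at least 1.52-fold, log2 change 0.90 ± 0.32, adjusted p = 0.0853). Without wildtype 36 h replicate 1 it was 1.39. Cdc20, the activator that Mad2l1 restrains, read 37.7 and 44.4, 48.7 and 54.4, and 48.2 and 78.4 in wildtype liver. Its change at 36 h was 0.45 (adjusted p = 0.102), and 0.73 without wildtype 36 h replicate 1. Bub1b, above the tag controls everywhere at 45.0 to 66.2, and Bub1, mostly below them, had log2 changes between -0.27 and 0.066 and no call.

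**Figure D3:**
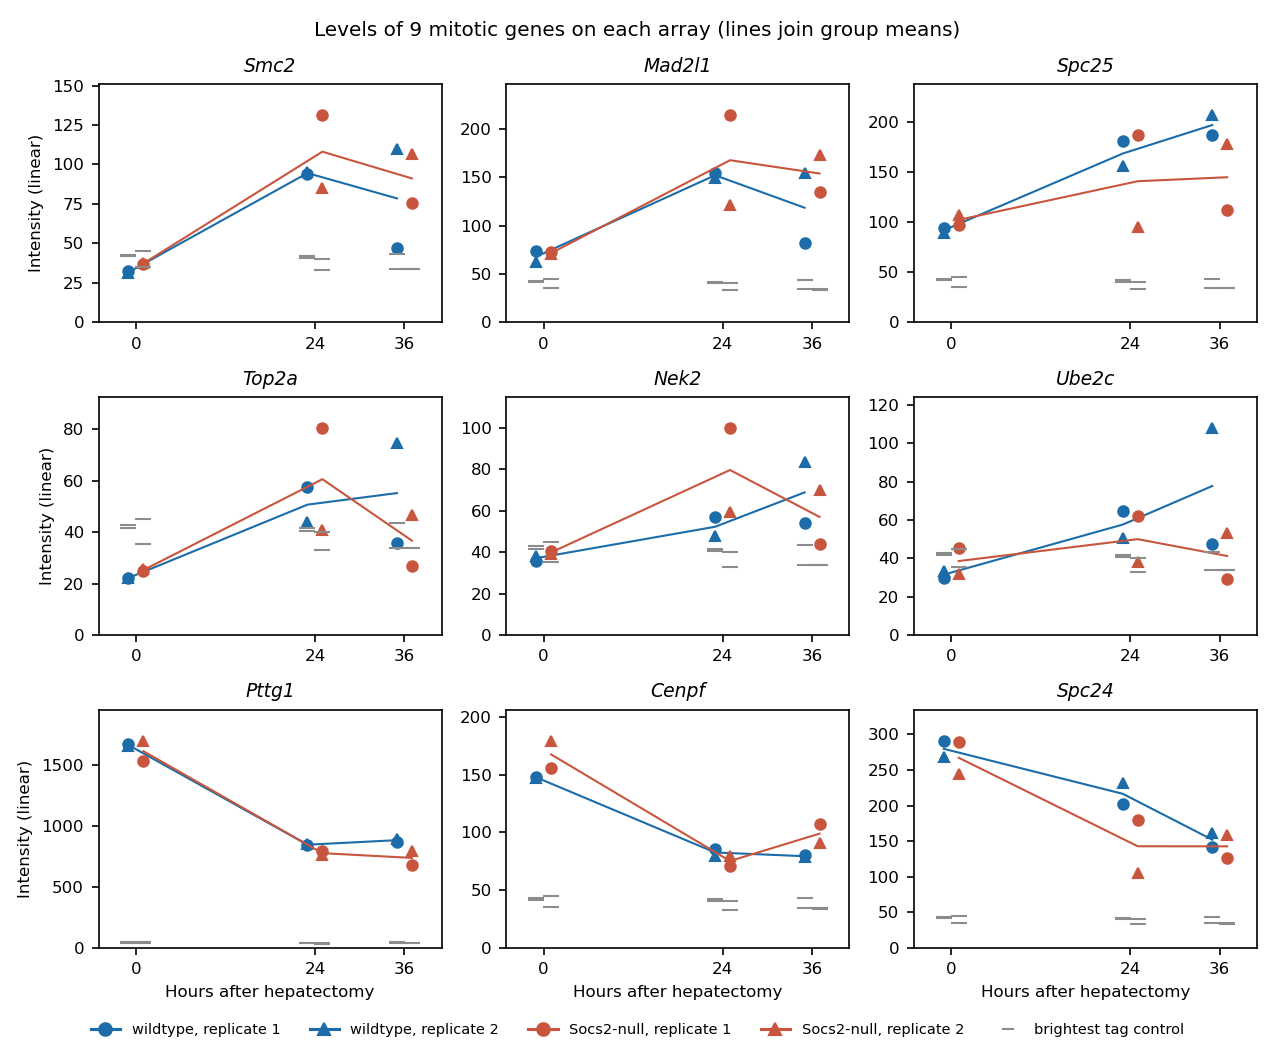
Linear intensities of 9 genes on each array against hours after hepatectomy, in wildtype (blue) and Socs2-null liver (red), with circles for replicate 1, triangles for replicate 2, lines through the group means and grey dashes for the brightest tag control, and points of the 2 genotypes set slightly apart. Pttg1, Cenpf and Spc24 are highest at 0 h, while Smc2, Mad2l1, Top2a, Nek2 and Ube2c have their lowest group means there and pools that often lie far apart after hepatectomy.

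The kinases, chromosomal passengers and entry factors drive the cell into mitosis and correct faulty attachments. Of 11 genes, Incenp fell in all 4 comparisons, and Aurka and Nek2 rose in Socs2-null liver at 24 h. Aurka, a kinase of the spindle poles, read 33.8 and 33.3, 51.9 and 51.1, and 39.4 and 63.8 in wildtype liver, and 34.7 and 24.6, 64.8 and 46.6, and 39.1 and 54.3 in Socs2-null liver. Unoperated levels were under background, so the Socs2-null rise at 24 h was at least 1.27-fold (log2 change 0.65 ± 0.19, adjusted p = 0.0277). The wildtype change at 24 h was 0.45 with an adjusted p of 0.102. Nek2, a centrosomal kinase, read 35.9 and 38.3, 56.8 and 47.8, and 54.1 and 83.7 in wildtype liver, and 40.7 and 39.1, 99.97 and 59.5, and 44.0 and 70.2 in Socs2-null liver. It rose 1.67-fold in Socs2-null liver at 24 h (log2 change 0.74 ± 0.23, adjusted p = 0.0369). The wildtype 36 h change of 0.66, at least 1.44-fold since 0 h was under background, had an adjusted p of 0.0795. Without wildtype 36 h replicate 1 that change was 0.91. The 3 other Nek2 probe sets changed by -0.15 to -0.046 in the comparison that was called. The Aurka call was lost without Socs2-null 0 h replicate 2 (adjusted p = 0.181) or 24 h replicate 1 (0.151). That of Nek2 was lost without either Socs2-null 0 h array (0.119 and 0.140), Socs2-null 24 h replicate 1 (0.206), or any wildtype array of 0 h or 24 h (0.0502 to 0.0559).

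Incenp, the scaffold of the chromosomal passenger complex, read 89.2 and 89.1, 64.5 and 64.6, and 65.1 and 62.1 in wildtype liver, and 87.8 and 71.7, 56.8 and 59.5, and 60.6 and 58.9 in Socs2-null liver. Unoperated arrays were the highest, with Socs2-null 0 h replicate 2 closest to the rest. The falls were 1.31-fold and 1.32-fold in wildtype liver and 1.29-fold and 1.26-fold in Socs2-null liver (adjusted p between 0.0221 and 0.0457). In wildtype liver these calls were lost without any array of the groups compared, with adjusted p of 0.0806 to 0.110 at 24 h and 0.0561 to 0.143 at 36 h. In Socs2-null liver the adjusted p was 0.198 and 0.285 without 0 h replicate 1, 0.0915 and 0.0659 without a 24 h array and 0.124 and 0.152 without a 36 h array. The last of these calls was also lost without any one of the 6 wildtype arrays (0.0512 to 0.0742). All 4 calls were lost with median centring (0.0521 to 0.0789) or the mean of all probe sets (0.0581 to 0.209), and those other than wildtype 36 h also with quantile normalization (0.0533 to 0.0626). The other members of that complex did not pass. Birc5, also called survivin, read 20.8 and 22.3, 38.0 and 30.3, and 26.2 and 50.6 in wildtype liver and 27.1 and 30.0, 54.2 and 22.2, and 20.9 and 39.0 in Socs2-null liver, so that in Socs2-null liver 1 array at each later time lay below both unoperated ones. Aurkb was under background on all arrays, at 10.8 to 30.5, and Cdca8, known as borealin, read 36.5 to 53.9. Plk1, the kinase needed at several steps of mitosis, ranged from 40.8 to 54.7 over all arrays. Its log2 changes were 0.068 and 0.22 in wildtype and -0.11 and -0.11 in Socs2-null liver, without a call, though the wildtype 36 h change passed with median centring (adjusted p = 0.0451) or quantile normalization (0.0420). Cks2, a small Cdk-binding protein and bright on every array, had changes of 0.17 to 0.33. Cdca3, a mitotic entry factor, read 38.1 to 85.1, and the Cdk1-activating phosphatases Cdc25b and Cdc25c read 23.5 to 31.3 and 29.8 to 43.7, with log2 changes between -0.13 and 0.068 for the phosphatases.

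Spindle motors and microtubule-binding proteins shape the spindle, and of 7 genes Hmmr alone had calls, as falls at 24 h. Hmmr binds hyaluronan at the cell surface and spindle microtubules in mitosis. It read 91.0 and 78.5, 56.2 and 46.04, and 109.9 and 93.1 in wildtype liver, and 64.3 and 88.1, 41.1 and 45.3, and 84.7 and 69.2 in Socs2-null liver. In both genotypes the 24 h arrays were the lowest, and the 36 h arrays were back at or above the unoperated level. The falls at 24 h were 1.503-fold (log2 change -0.59 ± 0.15, adjusted p = 0.0173) and 1.54-fold (-0.63 ± 0.15, adjusted p = 0.0124). From 24 h to 36 h the log2 changes were 0.81 in wildtype and 0.65 in Socs2-null liver (adjusted p = 0.0594 and 0.592), and the first passed without either Socs2-null 24 h array (0.0387 and 0.0389). A second probe set above the tag controls on all arrays changed by 0.17 and 0.18 at 24 h, so the fall rests on the brightest probe set. The calls were lost without either wildtype 0 h array (adjusted p = 0.121 and 0.0571) or wildtype 24 h replicate 2 (0.111). In Socs2-null liver 0 h replicate 2 (0.113) and 24 h replicate 1 (0.0501) were each needed for the call. The Aurka activator Tpx2, Nusap1, the depolymerase Kif2c and the motors Kif4, Kif11 and Kif22 exceeded the tag controls on 0 to 2 arrays each, with log2 changes from 0 h between -0.23 and 0.26 and no call. Kif2c read 39.9 and 40.0, 34.0 and 29.4, and 34.6 and 38.1 in wildtype liver, and 38.4 and 27.3, 29.6 and 29.8, and 34.3 and 26.3 in Socs2-null liver. Nusap1, a microtubule binder near chromosomes, read 23.3 and 27.8, 23.9 and 23.2, and 25.1 and 37.2 in wildtype liver, and 26.1 and 20.5, 41.9 and 21.9, and 23.9 and 30.5 in Socs2-null liver. Its log2 change in Socs2-null liver at 24 h was 0.56 without replicate 2 of that group.

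For cytokinesis, the splitting of the cell after mitosis, none of 6 genes passed the test at 24 h or 36 h. Ect2, which activates RhoA at the future furrow, had the largest changes. It read 16.2 and 24.2, 26.0 and 31.8, and 28.2 and 49.8 in wildtype liver, and 17.9 and 15.9, 39.3 and 25.9, and 28.3 and 45.7 in Socs2-null liver. Its log2 change in Socs2-null liver at 36 h was 0.67 ± 0.22 (adjusted p = 0.0526), in wildtype liver 0.58 (adjusted p = 0.0971), from unoperated levels under background, for which the bound gives no fold. The wildtype change was 0.87 without wildtype 36 h replicate 1, and the Socs2-null change 0.91 without Socs2-null 36 h replicate 1. Prc1, which bundles microtubules of the midzone, read 62.7 and 53.3, 48.0 and 36.0, and 49.8 and 48.2 in wildtype liver, and 56.7 and 50.8, 39.1 and 41.9, and 47.2 and 37.5 in Socs2-null liver. Its wildtype change was -0.36 ± 0.13 at 24 h (adjusted p = 0.0574), and -0.51 without wildtype 24 h replicate 1. With a replicate block in the fit, the wildtype 24 h change passed as a fall (adjusted p = 0.0410). A second Prc1 probe set, above the tag controls on 2 arrays, went the other way. It changed by 0.23 and 0.71 at 24 h and 36 h in wildtype liver and by 0.13 and 0.035 in Socs2-null liver. The furrow scaffold Anln and the centralspindlin subunit Racgap1 exceeded the tag controls on 2 arrays each, and the other centralspindlin subunit, Kif23, and the motor Kif20a on none. Kif23 read 11.3 to 24.5, with log2 changes of 0.060 to 0.13.

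Condensin and topoisomerase II compact and untangle chromosomes before they separate, and all 6 of these genes had positive log2 changes from 0 h in all 4 comparisons, but not under every setting. With the covariate the signs of Smc2, Ncapd2, Ncapg and Top2a turned at 36 h in both genotypes and that of Ncapg in wildtype liver at 24 h. The sign of Top2a turned in all 4 with shared-sequence probe sets left out, and in wildtype liver at 24 h with the mean of all probe sets. That of Smc4 turned in wildtype liver at 24 h with pseudocount 1, without 0 h replicate 2 or without 24 h replicate 1. Smc2, the ATPase subunit shared by both condensins, read 32.5 and 30.9, 93.8 and 95.2, and 46.9 and 110.1 in wildtype liver, and 37.0 and 37.4, 131 and 85.1, and 75.3 and 107 in Socs2-null liver. Every array after hepatectomy exceeded every unoperated one, and wildtype 36 h replicate 1 was the lowest of them. Smc2 rose at least 1.90-fold in wildtype liver at 24 h (log2 change 1.21 ± 0.28, adjusted p = 0.0129), and 2.29-fold and 1.99-fold in Socs2-null liver (adjusted p = 0.0132 and 0.0333). At 36 h in wildtype liver the change was 0.90, at least 1.53-fold (adjusted p = 0.0577), and 1.40 without replicate 1 of that group. The 3 other Smc2 probe sets changed by 0.0091 to 0.33 in wildtype liver at 24 h, where they were low on replicate 2, and by 0.51 to 0.998 at 36 h. The wildtype 24 h call was lost without any array compared (adjusted p = 0.0615 to 0.0737), or with the mean of all 4 probe sets (0.240). In Socs2-null liver the 24 h call was lost without either 0 h array (0.0630 and 0.0642) or 24 h replicate 1 (0.0793). The 36 h call was lost without either Socs2-null 0 h array (0.122 and 0.126), 36 h replicate 2 (0.173) or any wildtype array of 0 h or 24 h (0.0507 to 0.0511). With the covariate the Socs2-null changes were 0.63 (adjusted p = 0.206) and -0.18 (0.881), and with the mean of all probe sets the 24 h call had an adjusted p of 0.0522.

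Ncapd2, a non-SMC subunit of condensin, rose 1.55-fold in Socs2-null liver at 24 h (log2 change 0.64 ± 0.16, adjusted p = 0.0168). It read 51.0 and 42.0, 83.6 and 78.2, and 53.8 and 68.1 there, and 50.2 and 60.2, 71.9 and 93.2, and 58.3 and 82.4 in wildtype liver, where the 24 h change was 0.46 (adjusted p = 0.0576). The call was lost without Socs2-null 0 h replicate 2 (0.117) or 24 h replicate 1 (0.0594), and the wildtype change passed without wildtype 36 h replicate 1 or 2 (0.0389 and 0.0385). Smc4, the partner of Smc2, read 142 and 135.5, 204 and 93.6, and 162 and 264 in wildtype liver, and 157 and 157, 275 and 209.9, and 187 and 221 in Socs2-null liver. Its low value on wildtype 24 h replicate 2 recurred on a second probe set (74.0), whereas another read 165. Ncaph, a further condensin subunit, read 34.9 and 34.8, 41.05 and 37.4, and 39.1 and 49.4 in wildtype liver, and 32.0 and 34.1, 46.5 and 42.4, and 38.9 and 43.6 in Socs2-null liver. Ncapg, also of condensin, and Ncaph had calls in none of these comparisons. Ncapg read 19.5 to 44.6, with changes of 0.15 to 0.46, beside 0.12 to 0.30 for Ncaph. In Socs2-null liver the Ncapg change at 24 h was 0.65 without replicate 2 of that group. Ncaph passed there at 24 h with median centring (0.0324) or quantile normalization (0.0391), or without either wildtype 36 h array (0.0385 and 0.0382).

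Top2a, topoisomerase II alpha, read 22.3 and 22.04, 57.5 and 44.0, and 35.8 and 74.7 in wildtype liver, and 24.9 and 25.6, 80.5 and 40.8, and 26.7 and 46.7 in Socs2-null liver. All unoperated arrays were under background and all later ones were higher, but no change passed the test. The largest were at least 1.18-fold in wildtype liver at 36 h (log2 change 0.84 ± 0.30, adjusted p = 0.0880) and at least 1.32-fold in Socs2-null liver at 24 h (0.84 ± 0.30, adjusted p = 0.0664). A second Top2a probe set went the other way in wildtype liver, from 50.5 and 56.6 at 0 h to 30.0 and 32.6 at 24 h and 26.0 and 28.1 at 36 h. Where it stood for the gene, Top2a was called lower at both times (log2 change -0.55 and -0.69, adjusted p = 0.00351 and 0.00155), so the direction of Top2a depends on the probe set. With the brightest probe set, the wildtype change at 36 h was 1.25 without wildtype 36 h replicate 1. The Socs2-null change at 24 h was 1.23 without replicate 2 of that group.

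Foxm1, the transcription factor of the late cell cycle, was under background on all arrays. It read 35.4 and 42.4, 24.1 and 26.6, and 34.5 and 28.3 in wildtype liver, and 32.2 and 30.6, 19.8 and 23.3, and 29.4 and 27.5 in Socs2-null liver. It was called lower at 24 h in both genotypes (log2 change -0.41 ± 0.10 and -0.34 ± 0.10, adjusted p = 0.0160 and 0.0353), which at these levels gives no fold. Of 3 other probe sets, all under background, 1 changed to a like degree, by -0.37 in wildtype and -0.26 in Socs2-null liver. Another changed by -8.8e-05 and -0.045, and the last by 0.037 and 0.12. The calls were lost without wildtype 0 h replicate 2 (0.135) or 24 h replicate 1 (0.0911), and without either Socs2-null 0 h array (0.138 and 0.0976) or 24 h replicate 1 (0.150). Mki67, which encodes Ki-67, read 45.7 and 47.5, 57.9 and 43.5, and 52.4 and 74.6 in wildtype liver, and 51.6 and 41.5, 75.2 and 46.4, and 39.0 and 47.3 in Socs2-null liver. Its groups overlapped at 24 h in both genotypes and no change passed, with the largest at 0.33 in wildtype liver at 36 h (adjusted p = 0.271).

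Between 24 h and 36 h no mitotic gene passed the test in either genotype, against 0.24% and 0.00585% of all genes. At an unadjusted p under 0.05 there were 4 of 46 in wildtype and 3 of 46 in Socs2-null liver, beside 14.89% and 7.18% of all genes. The median log2 change of the 46 genes was 0.089 in wildtype liver and -0.074 in Socs2-null liver, beside 0.0057 and 0.015 over all genes.

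The 2 genotypes were compared at each time and in how they responded, which is the question the series was built for. No mitotic gene differed between Socs2-null and wildtype liver at 0 h (0.0% of all genes passed), 24 h (0.0117%) or 36 h (0.0234%), by limma at an adjusted p of 0.05. At an unadjusted p under 0.05 there were 0, 3 and 7 of 46 genes, beside 4.95%, 8.24% and 6.44% of all genes. At 0 h the median difference of the 46 genes was -0.046, close to that of all genes (-0.037), and both medians turned positive under either other scaling, at 0.026 and 0.036 with median centring. The highest test statistics belonged to Ttk, Cenpf and Cdc20 and the lowest to Foxm1, Anln and Bub1b, all with an adjusted p of 0.994 or more. At 24 h the median was -0.011, again positive with the other scalings, and the differences ran from -0.59 in Spc24 (adjusted p = 0.498) to 0.72 in Smc4 (adjusted p = 0.575). The Smc4 difference includes the low wildtype 24 h replicate 2. Nek2 was 1.37-fold higher in Socs2-null liver, with an adjusted p of 0.632, and Kif20a (0.15), Anln (-0.23) and Bub1b (-0.20) had adjusted p of 0.595 to 0.751.

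At 36 h, 39 of the 46 genes were lower in Socs2-null than in wildtype liver, where 8951 of 17097 genes were. The median difference was -0.16 for the 46 genes and -0.0081 for all genes, and that of the 46 genes kept its sign with median centring (-0.13) and quantile normalization (-0.13). Of the 8 genes above the median level of all genes, 5 were lower, with a median of -0.056. These values also moved with single arrays: without wildtype 36 h replicate 2, 27 of 46 genes were lower and the median was -0.027. With Socs2-null 36 h replicate 1 left out, 30 were lower and the median was -0.073. It was -0.26 without wildtype 36 h replicate 1, and -0.23 without the other Socs2-null array. Anln had the lowest statistic, with 35.3 and 44.2 in wildtype and 28.7 and 26.8 in Socs2-null liver (at least 1.11-fold lower, log2 difference -0.35 ± 0.10, adjusted p = 0.531). Cenpa read 1.30-fold lower (-0.38 ± 0.15, adjusted p = 0.686) and Plk1 1.17-fold lower, at 54.7 and 51.2 against 44.9 and 40.8 (adjusted p = 0.709). Mki67 was 52.4 and 74.6 against 39.0 and 47.3 (-0.42 ± 0.19, adjusted p = 0.776). In the other direction, Mad2l1 (0.38, adjusted p = 0.876), Cenpf (0.27, adjusted p = 0.767) and Smc2 (0.25, adjusted p = 0.931) had the highest statistics.

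**Figure D4:**
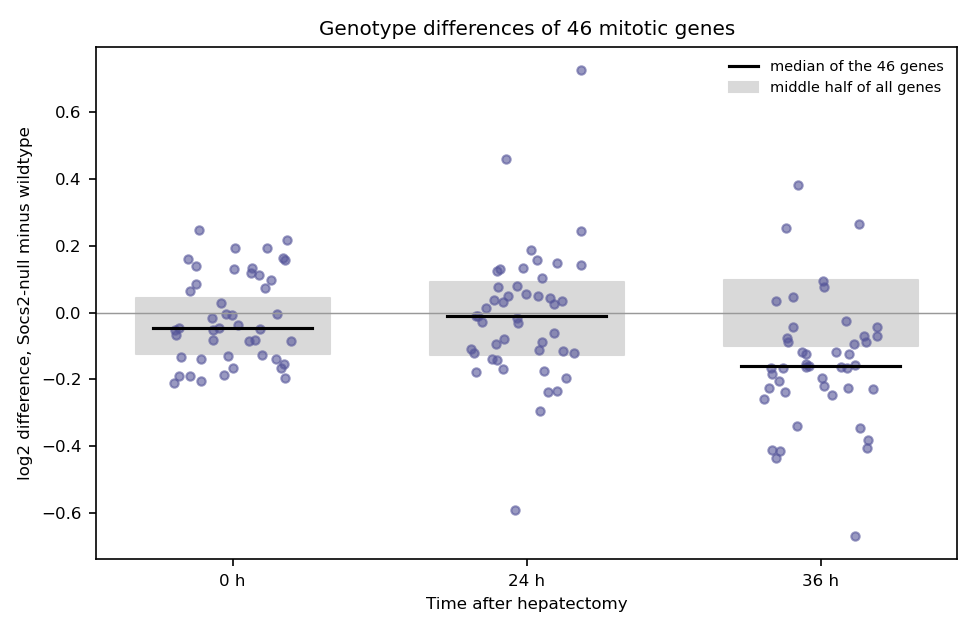
Each point is the log2 difference of intensity + 16 of a gene between Socs2-null and wildtype liver at a time, with points spread sideways for visibility, a black line at the median of the 46 genes and a grey band between the quartiles of all genes. The median lies near 0 at 0 h and 24 h and at -0.16 at 36 h, where 39 of 46 points are below 0. No point passed the test.

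The difference in response between the genotypes, tested directly as an interaction, passed for no mitotic gene from 0 h to 24 h (0.0% of all genes), from 0 h to 36 h (0.00585%) or from 24 h to 36 h (0.0%). At an unadjusted p under 0.05 there were 1, 4 and 3 of 46 genes, beside 3.78%, 3.74% and 5.11% of all genes. From 0 h to 24 h the lowest statistics belonged to Ttk, Spc24 and Cenpa, with differences of -0.34, -0.52 and -0.38, and the highest to Smc4, Ncapg and Kif20a (0.57, 0.29 and 0.19). From 0 h to 36 h they belonged to Cdc20 (-0.63 ± 0.24), Plk1 (-0.33 ± 0.13) and Cenpa (-0.52 ± 0.21), each with an adjusted p of 0.999, and the highest to Cdc25b, Mad2l1 and Foxm1 (0.16, 0.32 and 0.12). From 24 h to 36 h the lowest were Mki67 (-0.60 ± 0.27), Nek2 (-0.68 ± 0.32) and Espl1 (-0.35 ± 0.16), at an adjusted p of 0.896, and the highest Cenpf, Spc24 and Ttk (0.38, 0.50 and 0.18). Spc25, called in wildtype liver and not in Socs2-null liver, had differences of -0.43 ± 0.36 and -0.57 ± 0.36 from 0 h to 24 h and 36 h (adjusted p = 1 and 0.999), so its responses were not shown to differ.

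The pools of a group differed from each other in a way that many mitotic genes shared. Socs2-null 24 h replicate 1, wildtype 36 h replicate 2 and Socs2-null 36 h replicate 2 were each the higher pool for 27 of the 46 genes (58.7%) at once, where 10.76% of all genes had this pattern. By more than 0.25 log2 in each of the 3 groups it held for 10 genes (21.74%), against 0.743% of all genes: Mad2l1, Ube2c, Aurka, Birc5, Nek2, Cks2, Ect2, Smc2, Ncapg and Top2a. These 10 genes belong to the checkpoint, the kinases, cytokinesis and condensin, and none is among the genes that fell. The 43 measured DNA replication genes showed the same pattern for 26 (60.47%), and by more than 0.25 for 14 (32.56%). These arrays were singled out after their values were seen, and replicate numbers carry no order. The pools of wildtype 36 h liver differed most: replicate 2 was higher for 34 of 46 genes, with a median difference of -0.25 between replicate 1 and replicate 2, against 0.028 over all genes. In Socs2-null 36 h liver replicate 2 was higher for 31 genes (median -0.20, all genes 0.015), and in Socs2-null 24 h liver replicate 1 was higher for 31 (median 0.11, all genes -0.055). At 0 h the wildtype pools were even, with 24 genes higher in replicate 1 (median 0.0027), but in Socs2-null liver replicate 1 was higher for 31 there too (median 0.10, all genes 0.034). The wildtype 36 h count of calls moved from 6 to 11 without replicate 1 of that group, with Mad2l1, Cdc20, Ube2c, Aurka, Nek2, Ect2, Smc2 and Top2a as new calls, and to 2 without replicate 2 or without either wildtype 0 h array. The 3 arrays also had the lowest hybridization controls of their groups, at 9.34, 9.07 and 9.01, and the part of this in the pattern was not tested.

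**Figure D5:**
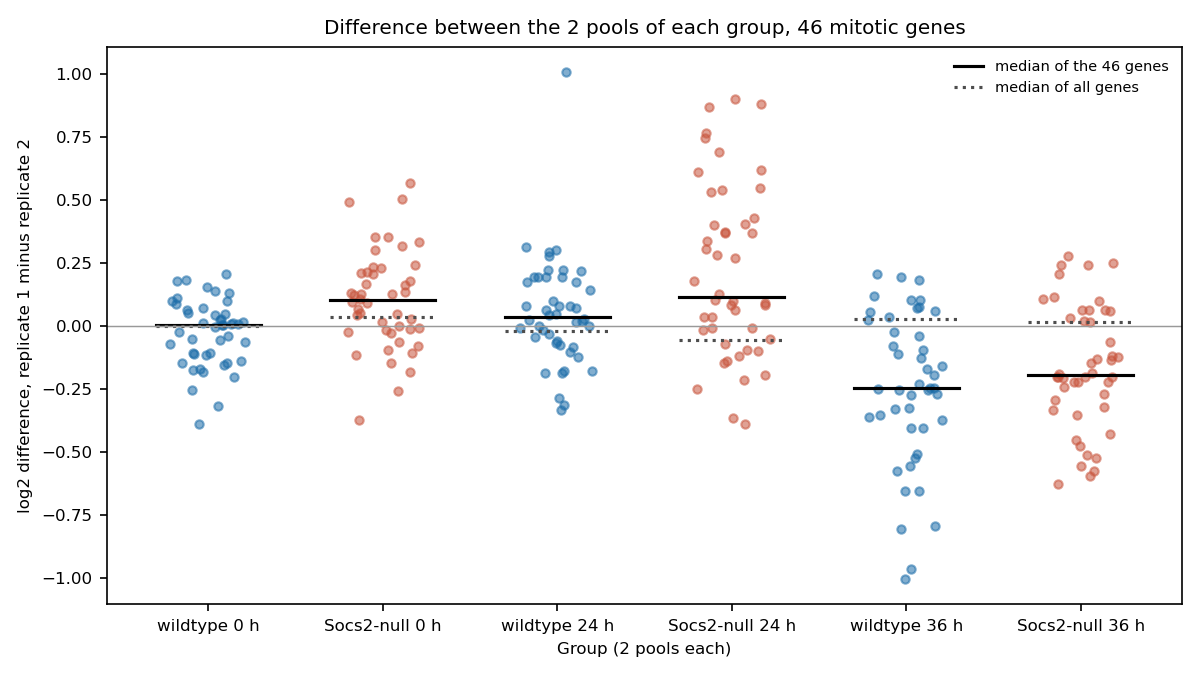
Each point is the log2 difference of intensity + 16 between replicate 1 and replicate 2 of a group for a gene, spread sideways for visibility, with a black line at the median of the 46 genes and a dotted line at the median of all genes. The median of the 46 genes is 0.0027 in wildtype and 0.10 in Socs2-null 0 h liver, 0.035 in wildtype and 0.11 in Socs2-null 24 h liver and -0.25 and -0.20 in the 36 h groups, while that of all genes stays between -0.055 and 0.034.

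Other genes of the cell cycle were counted in the same fits. Of 61 other mitosis genes, 10 rose and 2 fell in wildtype liver at 24 h and 3 rose and 1 fell at 36 h, and in Socs2-null liver 9 and 2, then 5 and 1. For these and the lists below, 25.8% and 15.2% of all genes passed in wildtype liver at 24 h and 36 h. In Socs2-null liver the shares of all genes were 24.2% and 20.0%. The other mitosis genes were called no more often than this. Tubb4b, a beta-tubulin, read 803 and 909 at first and 2336 and 2582 by 24 h in wildtype liver, and rose in all 4 comparisons (log2 change 1.01 to 1.57), as did the centromere protein Cenpc1 (0.61 to 0.72). Ska1, of the complex that couples kinetochores to microtubules, fell in all 4 (-0.81 to -0.62). Of 22 cohesin and anaphase-promoting complex genes, 4 rose and 2 fell in wildtype liver at 24 h and 6 rose in Socs2-null liver. These shares lie near those of all genes. Among the rises were the cohesin regulator Pds5a and the complex subunit Cdc16 in both genotypes. Of 43 DNA replication genes, 21 rose and 2 fell in wildtype liver at 24 h and 10 rose and 2 fell at 36 h, and in Socs2-null liver 25 and 2, then 16 and 2. Their median log2 change was 0.61 in wildtype liver at 24 h and 0.38 at 36 h, beside 0.016 and 0.135 for the 46 mitotic genes, the latter with the limits given above. Mcm6, of the replicative helicase, rose by log2 1.94 to 2.48, and the 2 that fell were Mcm10 (-3.27 to -1.92) and Tk1 (-1.93 to -1.30). Mcm10 read 1287 to 1590 at 0 h and 116 to 434 later, where Mcm6 read 60.9 to 71.0 at 0 h. Whether so bright a probe set reports Mcm10 was not tested. Of 8 measured cyclin and cyclin-dependent kinase genes, 1 passed in these comparisons: Ccnf rose in Socs2-null liver at 24 h (log2 change 0.68, adjusted p = 0.0172). Cdk1 read 56.9 and 61.0, 154 and 120.0, and 86.7 and 152 in wildtype liver, and 70.0 and 65.7, 196 and 78.6, and 66.8 and 123 in Socs2-null liver, with the same higher pools as Smc2 and Top2a in Socs2-null 24 h liver and in both 36 h groups.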

How the data were processed

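RNA of 12 pools was labelled as biotinylated cRNA from 10 µg of total RNA and hybridized to 1 Affymetrix array each, per the labels' protocols. The authors deposited processed intensities on a linear scale, 1 per probe set; how they were normalized and summarized is not given in the sources used here, and the lowest value is 1. Of 45141 probe sets, 28898 were named to 1 gene, 551 to several, 15588 to none and 104 were controls. Names of 28689 were matched by gene ID and no symbol changed.

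The intensity plus 16 was put on the log2 scale, and 1 probe set per gene, the brightest on average, left 17097 genes; 26 of the 46 genes have several. All folds are on this scale and understate changes of dim genes. limma 3.58.1 in R 4.3.3 fitted a mean per group over all arrays, with trend and robust eBayes and Benjamini-Hochberg adjustment over all genes at 0.05. The code was tested on simulated data. With 2 pools per group, p-values measure the spread between pools, and the number of arrays limits the precision. A group with an array left out has 1 array and adds no spread, so the spread then comes from the other groups. Fits share controls: 24 h and 36 h of a genotype share its 0 h arrays. The genes, lists and alternatives were chosen with earlier results of these data known. The text names the genes called, and Foxm1 and Mki67. Per role it names the 2 largest and the 1 smallest absolute log2 change in wildtype liver at 36 h. Also named are the 3 highest and 3 lowest statistics in each genotype comparison, and up to 4 genes of each other list. Further genes were named after their values were seen. Figures used matplotlib 3.10.9 in Python 3.11.15.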

Additional observations from a re-analysis of the deposited data

How the results depend on the processing

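The counts of called genes depended on the processing. In wildtype liver at 24 h the 9 calls became 5 with genes below the median mean level left out, where 8 of the 46 genes remained to be tested, 5 with the mean of all probe sets and 17 with only the arrays compared in the fit. In wildtype liver at 36 h the 6 calls became 1 with the hybridization control covariate. In Socs2-null liver at 24 h the 13 calls became 5 without these dim genes, 8 with the mean of all probe sets, 7 with only the arrays compared and 5 with the covariate. At 36 h the 8 calls became 5 without these dim genes, 5 without shared-sequence probe sets (35 genes tested) and 4 with the covariate. Apart from the fewer genes tested, the cause was not tested. Leaving out 1 array in turn gave 2 to 10, 2 to 11, 5 to 15 and 3 to 10 calls in these 4 comparisons, and 0 to 1 for wildtype 36 h against 24 h. Over all genes, the settings that kept every array gave 3239 to 6024 calls in wildtype liver at 24 h and 532 to 2682 at 36 h. In Socs2-null liver they gave 2440 to 4201 and 1424 to 3480. The counts of all genes thus moved with the processing too.

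Log2 changes of genes that turned sign, in the comparisons where the gene was called, named or gained a call, were the following. With the covariate, in wildtype liver at 36 h, Spc25 became -0.17, Smc2 -0.32, Mad2l1 -0.62, Ube2c -0.30, Cdc20 -0.18, Aurka -0.46, Birc5 -0.84, Nek2 -0.38, Ect2 -0.54, Nusap1 -0.81, Kif20a -0.28, Kif22 -0.33, Top2a -0.38, Mki67 -0.37, Prc1 0.25, Cdc25b 0.21 and Ndc80 0.19. In Socs2-null liver it turned Nusap1 (-0.20) and Spc25 (-0.19) at 24 h and Mad2l1 (-0.26), Smc2 (-0.18), Ect2 (-0.41) and Ncapg (-0.16) at 36 h. Without shared-sequence probe sets, Cenpa in wildtype liver at 24 h became 0.067, Top2a -0.55 and -0.69 in wildtype liver at 24 h and 36 h and -0.14 in Socs2-null liver at 24 h, and Nek2 -0.083 in Socs2-null liver and -0.030 between genotypes at 24 h. With the mean of all probe sets, Top2a became -0.010 in wildtype liver at 24 h, Prc1 0.265 in wildtype liver at 36 h, Nusap1 -0.0098 in Socs2-null liver at 24 h, Cenpf -0.021 between genotypes at 0 h and Ttk -0.12 in the difference of 24 to 36 h responses. In wildtype liver at 36 h, Ndc80 became 0.057 with quantile normalization and 0.066 with median centring, and Kif20a -0.0031 with pseudocount 1.

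Leaving out 1 array, changes that crossed 0 in wildtype liver at 36 h ranged from -0.049 to 0.13 for Bub1b, -0.13 to 0.14 for Kif20a, -0.033 to 0.012 for Ndc80 and -0.015 to 0.36 for Nusap1. In Socs2-null liver they ranged from -0.049 to 0.56 for Nusap1 and -0.090 to 0.78 for Spc25 at 24 h, and from -0.37 to 0.14 for Cdca3 at 36 h. The 36 h genotype difference ranged from -0.016 to 0.78 for Mad2l1 and from -0.25 to 0.75 for Smc2, and the difference in the 0 to 36 h response of Mad2l1 from -0.080 to 0.72, each turning without wildtype 36 h replicate 1. The cause was not tested.

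Same-numbered arrays did not deviate together throughout: over 15 pairs of groups the correlations of deviations ran from -0.499 to 0.347, with 3 over 0.1. This cannot exclude that same-numbered pools of some groups were handled together. A replicate block gave 10, 6, 12 and 8 calls in the 4 comparisons with 0 h and 0 in the others. Many of the genes lay near the tag controls, which limits what signal over background can show.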
